A study of Homo sapiens with 6 samples.

Results

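The E2F transcription factors and their DP partners were examined in PANC-1, a long-established line of human pancreatic ductal adenocarcinoma cells. The 10 genes E2F1 to E2F8, TFDP1 and TFDP2 were taken by gene symbol from a table of 58735 genes. All 10 were among the 15089 genes with enough counts to be tested. RNA-seq compared 3 samples transfected with control siRNA (si-NC) with 3 samples transfected with siRNA against METTL16 (si-METTL16), an RNA m6A methyltransferase. The study asked how loss of METTL16 changes gene expression in pancreatic cancer cells. The sample titles name the controls as control siRNA, whereas another label of the same samples calls them WT, and the titles were followed. The methods describe the sequenced cells as stably transfected and the replicates as biological triplicates. All samples came from 1 cell line, so that p-values measure the spread between cultures of PANC-1 cells and not between tumours.

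E2F proteins bind DNA at the promoters of genes needed for S phase, and most of them do so as a dimer with a DP protein. In G1 the pocket proteins RB1, RBL1 and RBL2 hold E2F in check, and phosphorylation by cyclin-dependent kinases releases it. E2F1, E2F2 and E2F3 are classed as activators and bind RB1. E2F4 and E2F5 act mainly as repressors with RBL1 and RBL2, and E2F6 represses without a pocket protein, together with Polycomb proteins. E2F7 and E2F8 are atypical: they carry a pair of DNA-binding domains, need no DP partner and repress E2F targets later in S phase. In pancreatic ductal adenocarcinoma the pathway is commonly altered through loss of the CDK inhibitor gene CDKN2A.

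Counts summed to between 15725298 and 18054436 per sample, so that 3 counts were worth between 0.166 and 0.191 CPM, the counts scaled to a common library total by TMM. METTL16 itself had 1546, 1641 and 1764 counts in the si-NC samples and 571, 528 and 627 counts in the si-METTL16 samples, which left 35.9% of the control level. Of all tested genes, 5418 passed a Benjamini-Hochberg adjusted p of 0.05 in edgeR's quasi-likelihood test, which is 35.9% of them, with 2780 (18.4%) higher and 2638 (17.5%) lower in si-METTL16. The summed level of 6 markers of the duct carcinoma line was 4350 to 5780 CPM in si-NC and 4960 to 5320 CPM in si-METTL16, although 2 of the 6 were called, with KRT19 lower by a log2 fold change of -1.40 (adjusted p = 0.00111) and KRT7 by -0.84 (adjusted p = 0.0117), and EPCAM was at 5.59 to 12.7 CPM. Summed acinar, islet and endothelial markers stayed at or below 0.913 CPM in every sample. The 4 immune markers summed to 5.74 to 5.83 CPM in si-NC and 7.79 to 9.45 CPM in si-METTL16, nearly all of it CD68 (log2 fold change 0.67, adjusted p = 0.00928), while CD3E had no count. The 4 fibroblast markers summed to 323 to 374 CPM in si-NC and 801 to 840 CPM in si-METTL16, nearly all of it COL1A1 (1.27, adjusted p = 9.4e-05), while DCN stayed at or below 0.114 CPM. The part of these marker changes in the results given here was not tested.

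Of the 10 genes, 4 were higher and 1 was lower in si-METTL16, that is 5 called genes against the 35.9% called among all genes. E2F1, E2F2, E2F7 and E2F8 rose, by 2.39-fold to 3.17-fold. E2F4 fell to 79.0% of its control level. E2F3, E2F5, E2F6, TFDP1 and TFDP2 did not pass the test. In 6 of the 10 genes the si-NC and si-METTL16 samples did not overlap, beside 50.9% of all tested genes. The median log2 fold change was 1.41 for the 3 activators, 0.10 for the 3 repressors, 1.33 for both atypical genes and -0.20 for both DP genes, beside -0.00 over all tested genes. In bulk RNA, a change in the share of cells at a cell cycle stage and a change in RNA per cell cannot be told apart.

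**Figure D1:**
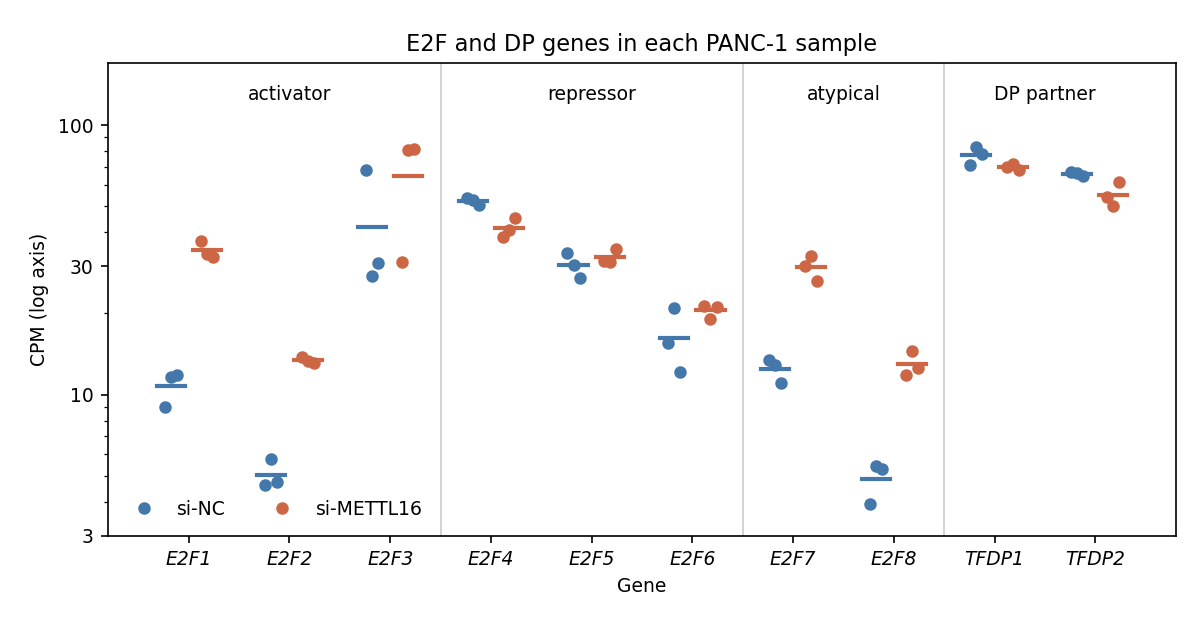
CPM on a log axis of the 10 genes in each PANC-1 sample, with si-NC samples in blue and si-METTL16 samples in orange. Points are samples and bars are means of 3 samples. E2F1, E2F2, E2F7 and E2F8 have all si-METTL16 samples above all si-NC samples, whereas E2F3 is high in 1 si-NC and 2 si-METTL16 samples.

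Among the activators, E2F1 is known to drive S phase entry and, at high levels, genes of cell death. E2F1 (chr20:33675683-33686404) was at 8.99, 11.6 and 11.8 CPM in the si-NC samples and at 37.1, 33.2 and 32.5 CPM in the si-METTL16 samples. The lowest si-METTL16 sample lay well above the highest control. E2F1 rose 3.17-fold (log2 fold change 1.67, SE 0.13, edgeR adjusted p = 2.1e-04, 95% interval 1.36 to 1.97) and ranked 163rd from the highest fold change of the 15089 genes. E2F2, an activator with much the same binding partners, lies at chr1:23506430-23531220. Its CPM values were 4.62, 5.77 and 4.73 in si-NC and 13.8, 13.3 and 13.1 in si-METTL16, again without overlap. E2F2 rose 2.65-fold (log2 fold change 1.41, SE 0.13, adjusted p = 4.0e-04) from counts of only 78 to 98 per control sample. Leaving out any 1 sample kept the log2 fold change between 1.54 and 1.73 for E2F1 and between 1.34 and 1.51 for E2F2.

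E2F3 (chr6:20401906-20493715), an activator gene known to be amplified in bladder tumours, was widely spread within both groups of samples. It was at 67.9, 27.5 and 30.7 CPM in si-NC and at 31.1, 81.1 and 81.8 CPM in si-METTL16. Replicate 1 of si-NC thus held more than 2 times the E2F3 of the other controls, and replicate 1 of si-METTL16 was as low as those controls. The group means were 42.0 ± 22.4 (SD, n = 3) and 64.7 ± 29.1 CPM (SD, n = 3), and the difference did not pass the test (log2 fold change 0.62, SE 0.46, adjusted p = 0.325, 95% interval -0.45 to 1.69). The interval covers both a fall and a rise larger than that of E2F2. No fit with 1 sample left out passed the threshold (adjusted p 0.0894 to 0.595), and the log2 fold change ran from 0.39 without si-NC replicate 2 to 1.15 without si-NC replicate 1. Counts of its pseudogene E2F3P2 came to 12 over all samples, against 5400 for E2F3, and E2F3P1 had none. The plot of E2F3 by sample sets it beside genes of a like profile and beside its neighbours on the chromosome.

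**Figure D2:**
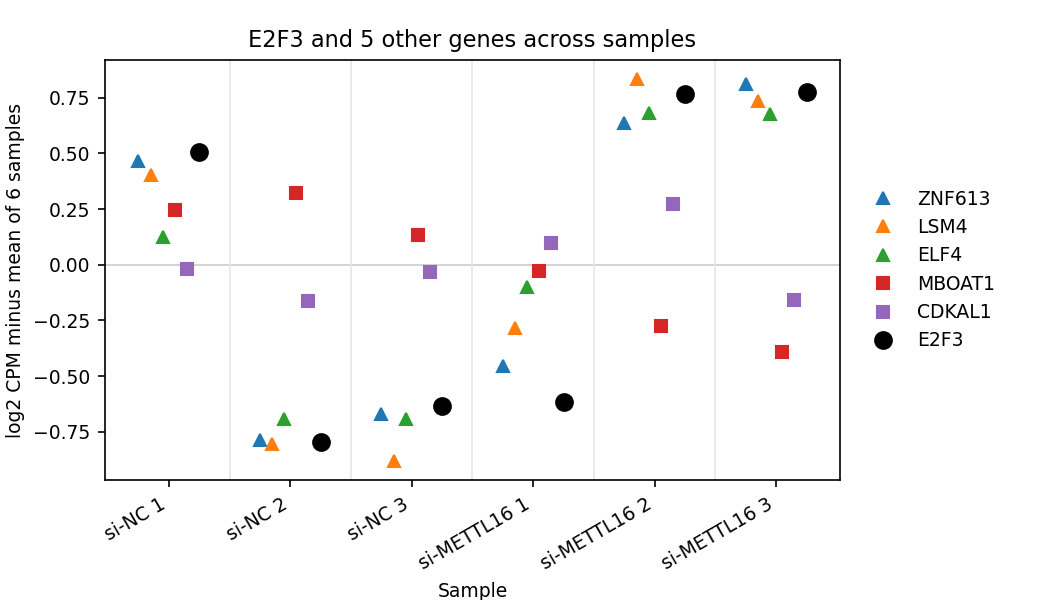
Log2 CPM minus the mean of the 6 samples for E2F3 (circles), for 3 genes with a close profile, chosen after their values were seen (triangles: ZNF613, LSM4, ELF4), and for its neighbours on chromosome 6 (squares: MBOAT1, CDKAL1). E2F3 is above 0 in si-NC replicate 1 and si-METTL16 replicates 2 and 3, whereas MBOAT1 and CDKAL1 do not share these steps.

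E2F1 and its relatives are known to bind E2F sites in activator promoters, so the promoter letters of the activators are shown. RefSeq windows of GRCh38.p14, from 250 bases before to 50 bases after each start, covered 8 of the 10 genes in 11 windows. The octamers TTTCCCGC, TTTCGCGC, TTTGCCGC and TTTGGCGC were searched on both strands. At least 1 was present in 4 of the 11 windows, those of E2F1, E2F2, E2F3 and TFDP1, and in 3.31% of all 35116 windows. E2F4, E2F6, E2F7 and TFDP2 held none of these letters in their windows. Among the 4 called genes with a window 2 held an octamer, and so did 2 of the 4 genes that were not called. The stretches below run 5′ to 3′ on the strand of the gene and end at the base before the RefSeq start, with capitals on the octamers. They lie at chr20:33686386-33686535 on the minus strand for E2F1, at chr1:23531234-23531383 on the minus strand for E2F2 and at chr6:20401729-20401878 on the plus strand for E2F3.
E2F1: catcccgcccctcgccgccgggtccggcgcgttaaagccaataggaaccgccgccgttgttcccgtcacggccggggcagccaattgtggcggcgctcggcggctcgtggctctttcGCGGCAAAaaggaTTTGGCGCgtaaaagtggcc
E2F2: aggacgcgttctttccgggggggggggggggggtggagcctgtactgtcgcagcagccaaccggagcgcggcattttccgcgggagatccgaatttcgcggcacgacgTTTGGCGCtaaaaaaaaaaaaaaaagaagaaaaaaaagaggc
E2F3: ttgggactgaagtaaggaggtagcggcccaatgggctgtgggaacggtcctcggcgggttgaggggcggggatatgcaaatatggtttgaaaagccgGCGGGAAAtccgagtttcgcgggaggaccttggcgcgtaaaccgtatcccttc
E2F1 held a pair of octamers starting 33 and 20 bases before its start, on opposite strands. E2F2 held 1 in the same letters as the nearer site of E2F1, starting 42 bases before its start, and E2F3 held 1 read on the other strand, starting 53 bases before. A match of letters is a description of these windows and does not show binding.

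**Figure D3:**
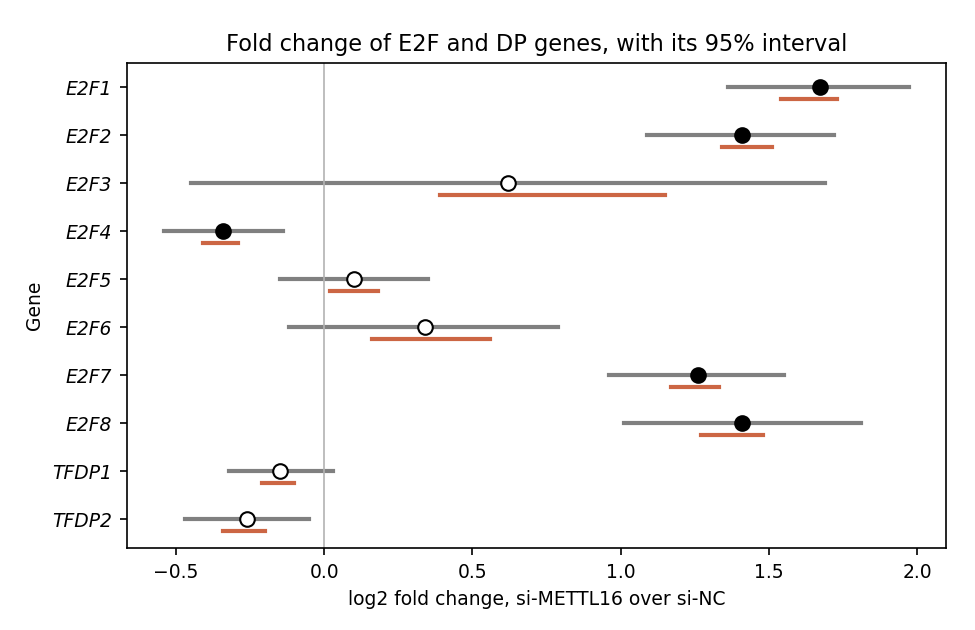
Log2 fold change of si-METTL16 over si-NC for each of the 10 genes, with filled circles for an adjusted p under 0.05. Grey lines are 95% intervals and orange lines the range over 6 fits with 1 sample left out each. E2F1, E2F2, E2F7 and E2F8 lie between 1.26 and 1.67, and the interval of E2F3 spans 0.

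The repressors did not move together. E2F4, the most abundant E2F transcript per length in control cells and the E2F of the DREAM complex in resting cells, lies at chr16:67192169-67198918. It was at 53.7, 52.9 and 50.7 CPM in si-NC and at 38.5, 40.7 and 45.2 CPM in si-METTL16. All si-METTL16 samples were below all controls, by a small margin for replicate 3. E2F4 fell by 0.34 on the log2 scale (SE 0.09, edgeR adjusted p = 0.0193, 95% interval -0.54 to -0.14). The call was kept in 3 of the 6 fits with 1 sample left out, at adjusted p of 0.0491 without si-NC replicate 2, 0.0412 without si-NC replicate 3 and 0.0156 without si-METTL16 replicate 3. It was lost in the others, at 0.0519 without si-NC replicate 1, 0.0526 without si-METTL16 replicate 1 and 0.0565 without si-METTL16 replicate 2, with log2 fold changes of -0.33, -0.29 and -0.33.

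E2F5, the repressor classed with E2F4, was at 33.6, 30.2 and 27.0 CPM in si-NC and at 31.3, 31.1 and 34.8 CPM in si-METTL16. The groups overlapped (log2 fold change 0.10, SE 0.11, adjusted p = 0.506, 95% interval -0.15 to 0.35). In the annotation, 16.6% of its exon bases are shared with RBIS on the opposite strand, and the use of strand in counting is not stated, so that some of its counts are uncertain. E2F6 (chr2:11444375-11466177), the Polycomb-linked repressor, was at 15.6, 21.0 and 12.1 CPM in si-NC and at 21.3, 19.1 and 21.2 CPM in si-METTL16. Here the controls were more spread than the si-METTL16 samples, and replicate 2 of si-NC was as high as the latter. The difference did not pass the test (log2 fold change 0.34, SE 0.19, adjusted p = 0.216), but did so without si-NC replicate 2 (0.56, adjusted p = 0.0329), whereas without si-NC replicate 3 the value was 0.16 (adjusted p = 0.480). The pseudogenes E2F6P1 and E2F6P4 had 26 and 1 counts in all, against 1861 for E2F6.

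Both atypical E2F genes rose. E2F7 (chr12:77021247-77065580) was at 13.4, 12.9 and 11.0 CPM in si-NC and at 29.9, 32.7 and 26.4 CPM in si-METTL16. It rose 2.39-fold (log2 fold change 1.26, SE 0.12, edgeR adjusted p = 4.6e-04), and the fold change stayed between 1.17 and 1.33 with any 1 sample left out. E2F8 (chr11:19224063-19241620), which acts with E2F7 as a homodimer or heterodimer, had 66, 92 and 93 counts in si-NC and 194, 226 and 226 counts in si-METTL16. These correspond to 3.91, 5.42 and 5.30 CPM against 11.8, 14.5 and 12.6 CPM, without overlap. E2F8 rose 2.65-fold (log2 fold change 1.41, SE 0.17, adjusted p = 9.6e-04). Its exons share 7 bases with CSRP3-AS1, which had no counts.

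The window of E2F7 is shown because it held CCAAT 4 times, each read on the other strand as ATTGG, and none of the E2F octamers. The 250 bases before its RefSeq start run on the minus strand at chr12:77065570-77065819, with capitals on these letters.
E2F7: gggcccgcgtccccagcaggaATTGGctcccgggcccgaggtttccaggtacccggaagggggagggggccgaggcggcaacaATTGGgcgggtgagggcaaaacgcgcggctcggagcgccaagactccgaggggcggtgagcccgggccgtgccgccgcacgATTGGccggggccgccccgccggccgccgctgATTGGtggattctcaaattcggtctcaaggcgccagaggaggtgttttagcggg
CCAAT was present on either strand in 4 of the 11 windows, of E2F1, E2F3, E2F7 and TFDP2, and in 34.6% of all windows. Repeated copies were not particular to E2F7. E2F3 held them starting 249, 187, 151 and 123 bases before its start, and E2F1 179, 113 and 70 bases before. The cell cycle homology letters TTTGAA or TTCGAA were present in 3 windows, of E2F3 and TFDP2, and in 16.4% of all windows.

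The DP genes, whose products pair with E2F1 to E2F6, did not pass the test. TFDP1 (chr13:113584721-113641470), the major DP gene, was at 71.4, 82.7 and 78.0 CPM in si-NC and at 69.7, 71.6 and 68.3 CPM in si-METTL16. The groups overlapped by a narrow margin (log2 fold change -0.15, SE 0.08, edgeR adjusted p = 0.168, 95% interval -0.32 to 0.03). TFDP2 (chr3:141944428-142149544) was at 66.7, 66.5 and 64.6 CPM in si-NC and at 54.0, 49.9 and 61.3 CPM in si-METTL16. The groups did not overlap, and TFDP2 moved by -0.26 on the log2 scale (SE 0.09, adjusted p = 0.0573, 95% interval -0.47 to -0.05). The adjusted p was 0.0219 without si-METTL16 replicate 3 (log2 fold change -0.34) and 0.0463 with scaling by total counts (-0.28). TFDP3, a related gene, had no counts in any sample. TFDP1 carried 1 octamer, shown in capitals within 118 bases of its promoter on the plus strand of chr13:113584603-113584720.
TFDP1: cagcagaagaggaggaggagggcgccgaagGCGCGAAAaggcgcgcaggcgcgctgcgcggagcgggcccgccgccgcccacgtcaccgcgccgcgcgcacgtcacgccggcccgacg
The octamer reads TTTCGCGC on the other strand.

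Levels of different genes were compared per length. The deposited FPKM values were made with a gene length close to the sum of all annotated exons, with overlapping exons counted more than once. The length implied by count and FPKM was 2.59 times that of the merged exons for E2F4 and 0.93 times for E2F1. Levels were therefore also computed as CPM per kb of merged exons and per kb of the MANE Select transcript, the single transcript agreed on by RefSeq and GENCODE. Comparisons of 1 gene between samples are not touched by the length.

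Per kb of MANE Select transcript, TFDP1 was the highest of the 10 genes in si-NC (29.3 ± 2.16 CPM per kb, SD, n = 3), followed by E2F4 (24.9 ± 0.741), E2F5 (15.4 ± 1.69), E2F3 (8.35 ± 4.45), TFDP2 (6.67 ± 0.115), E2F6 (5.03 ± 1.39), E2F1 (4.02 ± 0.584), E2F7 (2.17 ± 0.224), E2F8 (1.32 ± 0.228) and E2F2 (0.970 ± 0.123). Within this order E2F3 overlapped with both TFDP2 and E2F6, E2F6 with E2F1, and E2F8 with E2F2. In si-METTL16 the order began in the same way, with TFDP1 (26.5 ± 0.629), E2F4 (19.6 ± 1.64), E2F5 (16.5 ± 1.06) and E2F3 (12.8 ± 5.77). E2F1 followed at 12.7 ± 0.917, above E2F6 (6.35 ± 0.380), TFDP2 (5.57 ± 0.583), E2F7 (5.18 ± 0.549), E2F8 (3.50 ± 0.371) and E2F2 (2.58 ± 0.0759). E2F3 overlapped with E2F5, E2F1, E2F6 and TFDP2, and TFDP2 overlapped with both E2F6 and E2F7. E2F1 stood 7th, 7th and 6th among the 10 genes in the si-NC samples and 4th, 5th and 5th in the si-METTL16 samples. By the deposited FPKM it stood 4th, 3rd and 3rd in si-NC and 1st in every si-METTL16 sample, so that its rank depended on the length used while the direction of its move did not.

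The 3 classes were then set against each other as shares of the summed level of E2F1 to E2F8. By deposited FPKM, the activators held 43.5%, 37.4% and 41.3% of this sum in si-NC and 58.0%, 59.6% and 59.0% in si-METTL16. The repressors held 48.3%, 52.7% and 49.0% in si-NC and 28.2%, 25.9% and 28.9% in si-METTL16. Neither class overlapped between the groups. Per kb of MANE Select transcript the activator share was lower throughout, at 25.8%, 17.7% and 20.3% in si-NC and 31.5%, 38.0% and 36.5% in si-METTL16. On that scale the repressors remained the larger class in every sample, at 69.2%, 76.3% and 73.8% in si-NC and 56.7%, 50.2% and 54.0% in si-METTL16. The atypical share on the same scale was 4.95% to 6.04% in si-NC and 9.47% to 11.8% in si-METTL16. Under all 3 lengths the activator and atypical shares were higher, and the repressor share lower, in every si-METTL16 sample than in every control. The repressors led in every control under all 3 lengths, whereas the class in the lead in si-METTL16 depended on the length. These shares include E2F3, which was high in replicate 1 of si-NC and low in replicate 1 of si-METTL16. Its deposited FPKM rests on a length 2.34 times the sum of its annotated exons. A larger share of 1 class lowers the shares of the others, and E2F4 is the only repressor that was called.

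**Figure D4:**
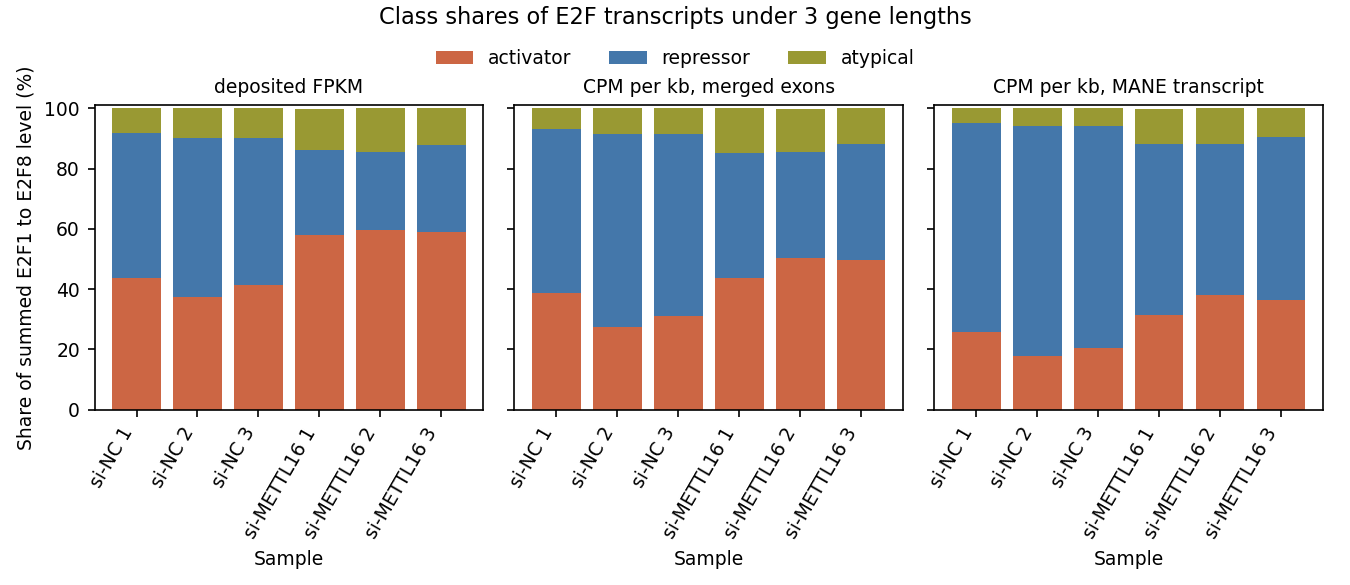
Share in percent of the summed E2F1 to E2F8 level held by activator, repressor and atypical genes in each sample, for the deposited FPKM and for CPM per kb of merged exons and of the MANE Select transcript. Activator shares are 37.4% to 43.5% in si-NC and 58.0% to 59.6% in si-METTL16 by FPKM, and 17.7% to 25.8% and 31.5% to 38.0% per kb of MANE Select transcript.

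The ratio of E2F1 to E2F4, the called genes of the activator and repressor classes that differ in direction, went from 0.131, 0.172 and 0.183 in si-NC to 0.757, 0.641 and 0.564 in si-METTL16 per kb of MANE Select transcript. E2F4 transcripts thus still exceeded those of E2F1 in each si-METTL16 sample on that scale. In the same samples the ratio was 1.29, 1.09 and 0.962 per kb of merged exons, and 2.67 to 3.59 by deposited FPKM. The summed DP level relative to the E2F genes that use a DP partner was 0.519, 0.658 and 0.682 in si-NC and 0.503, 0.447 and 0.419 in si-METTL16 per kb of MANE Select transcript. TFDP1 exceeded TFDP2 between 4.01 and 5.38 times on the same scale.

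The genes around E2F were grouped in lists written from general knowledge, but chosen with earlier results of these data known. Each list is therefore described and not tested, by its counts beside the 18.4% higher and 17.5% lower among all tested genes. Of 8 pocket protein and MuvB genes, 4 rose and none fell, with a median log2 fold change of 0.34. Those counts were the same with any 1 sample left out, while the median was 0.21 without si-NC replicate 2, 0.50 without si-NC replicate 1 and 0.51 without si-METTL16 replicate 2. The retinoblastoma gene RB1 rose by a small amount, from 66.9 ± 4.05 to 86.1 ± 3.22 CPM (SD, n = 3, log2 fold change 0.36, edgeR adjusted p = 0.00756). RBL1, which encodes p107, was at 16.6, 15.8 and 20.0 CPM in si-NC and at 36.1, 37.4 and 31.7 CPM in si-METTL16 (log2 fold change 1.00, adjusted p = 9.9e-04). The MuvB genes LIN9 (1.27, adjusted p = 2.7e-04) and LIN54 (0.94, adjusted p = 7.5e-04) rose too. RBBP4, the most abundant of the genes that did not pass, had a log2 fold change of -0.12.

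Upstream of the pocket proteins, 4 of 9 G1 cyclin, CDK and phosphatase genes rose and 3 fell, and the number that rose was 2 without si-NC replicate 2 and 2 without the filter on low counts. The D cyclins act first, and CCND1 fell from a mean of 728 to 523 CPM (log2 fold change -0.48, edgeR adjusted p = 7.1e-04). CCND2 fell from 1.26 ± 0.129 to 0.428 ± 0.189 CPM (SD, n = 3, -1.56, adjusted p = 0.0165), but the adjusted p lay between 0.0552 and 0.0580 without si-METTL16 replicate 1, si-METTL16 replicate 3 or si-NC replicate 3, with log2 fold changes of -1.32 to -1.50. CCND3, named after its values were seen, went the other way, from a mean of 17.1 to 27.1 CPM (0.66, adjusted p = 0.0532). It passed in 2 of the 6 fits with 1 sample left out. Cyclin E acts later and is itself an E2F target: CCNE1 was at 10.8, 12.8 and 10.4 CPM in si-NC and at 16.8, 23.1 and 22.0 CPM in si-METTL16 (0.86, adjusted p = 0.00507). CDC25A, a phosphatase that activates CDK2, rose by 1.44 (adjusted p = 0.00287). CDK4 did not pass (log2 fold change 0.17, adjusted p = 0.357), except at 0.33 without si-NC replicate 1 (adjusted p = 0.0346).

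Among 7 CDK inhibitor genes, CDKN2A had 0 counts in every sample and CDKN2B at most 1, too few to be tested. The other 5 all passed, 2 higher and 3 lower. The higher count was 1 without si-NC replicate 1 or 2, without si-METTL16 replicate 1 or 3, without the filter on low counts, and with the replicate number as a block. CDKN1A, which encodes p21, was at 184, 206 and 182 CPM in si-NC and at 64.9, 60.3 and 59.5 CPM in si-METTL16. It fell by 1.63 on the log2 scale (edgeR adjusted p = 8.3e-05). CDKN1C (p57) fell by 0.91 (adjusted p = 0.0135). CDKN2C, which encodes the CDK4 and CDK6 inhibitor p18, rose from a mean of 53.3 to 94.8 CPM (0.83, adjusted p = 0.00125).

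Of 5 genes whose products take part in E2F turnover, 3 rose and 1 fell. The fall, of the ubiquitin ligase gene BTRC, named after its values were seen (log2 fold change -0.24, adjusted p = 0.0362), was kept only without si-NC replicate 3 among the 6 fits with 1 sample left out, and was lost with the replicate block and without the filter. CCNF, the F-box protein cyclin F, was at 20.1, 24.6 and 24.4 CPM in si-NC and at 51.6, 59.9 and 54.5 CPM in si-METTL16 (log2 fold change 1.26, edgeR adjusted p = 3.0e-04). SKP2, another F-box protein (0.76, adjusted p = 0.00255), and CDC20, an activator of the anaphase-promoting complex (1.04, adjusted p = 5.6e-04), also rose. FZR1, the other such activator, had a log2 fold change of 0.07. Of 8 coactivator genes, 2 rose, 1 fell and 5 did not pass, among them KMT2A (0.24). The number that rose was 1 without si-METTL16 replicate 2 or 3 or si-NC replicate 2, and without the filter. The acetyltransferase gene KAT5 rose (0.46, adjusted p = 0.00198) and KAT2B fell by 0.44 (adjusted p = 0.0128). KAT2A passed at 0.32 (adjusted p = 0.0316), which was 0.25 to 0.32 with adjusted p of 0.0759 to 0.0990 without si-METTL16 replicate 2 or 3 or si-NC replicate 2 or 3.

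E2F6 works within the Polycomb complex PRC1.6, of which 12 genes were tested, with 4 higher and 3 lower in si-METTL16. With any 1 sample left out, and without the filter on low counts, 3 were higher. PCGF6, the subunit that defines the complex, rose from 11.4 ± 2.92 to 26.1 ± 2.86 CPM (SD, n = 3, log2 fold change 1.20, edgeR adjusted p = 0.00368). MAX, which pairs with MGA to bind DNA, fell from 27.6 ± 2.81 to 12.7 ± 2.33 CPM (-1.12, adjusted p = 0.00157). The deacetylase gene HDAC1 rose (0.64, adjusted p = 7.7e-04), whereas HDAC2, another deacetylase gene named after its values were seen, fell (-0.49, adjusted p = 8.5e-04). CBX3 had a log2 fold change of -0.03. Of 14 germline genes known as E2F6 targets only 5 had enough counts to be tested. STAG3 and SYCE2, both of meiotic chromosomes, rose (1.36 and 1.22, adjusted p = 0.0236 and 0.0244) and CPEB1 fell by 0.52 (adjusted p = 0.0437), while TDRKH had a value of 0.16. STAG3 was at 0.228 to 0.412 CPM in si-NC and at 0.834 to 0.914 CPM in si-METTL16, so the controls were close to the level of 3 counts. These 3 calls were weak: the number of called genes was 0 without si-NC replicate 1 or any 1 si-METTL16 replicate and 1 without si-NC replicate 3.

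Most of the S phase and mitotic targets of E2F rose. Of 33 replication and S phase genes, 30 rose and none fell, with a median log2 fold change of 0.93 and a range of 0.24 to 1.76. MCM10, a factor of helicase activation, was at 7.57, 10.4 and 9.53 CPM in si-NC and at 28.8, 32.8 and 31.5 CPM in si-METTL16 (1.76, edgeR adjusted p = 2.1e-04). GINS4 (1.64, adjusted p = 0.0110) and GINS2 (1.57, adjusted p = 0.00269), subunits of the same helicase, followed. SLBP, the histone mRNA binding protein, did not pass (0.27, adjusted p = 0.129) except without si-METTL16 replicate 3 (0.38, adjusted p = 0.0482). Of 8 nucleotide synthesis genes, 6 rose and none fell (median 0.83). RRM2, the regulated subunit of ribonucleotide reductase, rose most of all list genes, from 29.1, 50.3 and 35.3 CPM to 211, 241 and 298 CPM (2.71, adjusted p = 2.4e-04). TYMS (1.40, adjusted p = 0.00139) and RRM1 (1.26, adjusted p = 2.6e-04) rose as well, whereas DUT had a log2 fold change of -0.09.

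Of 21 repair and chromatin genes under E2F, 18 rose and 1 fell (median 1.03). The fall, of the Polycomb gene SUZ12, named after its values were seen (-0.28, adjusted p = 0.0240), was lost without si-NC replicate 2 or 3 or si-METTL16 replicate 1 or 2. FANCD2, of the Fanconi anaemia pathway, was at 19.2, 22.7 and 22.5 CPM in si-NC and at 72.0, 82.9 and 79.1 CPM in si-METTL16 (1.86, edgeR adjusted p = 9.2e-05). EXO1 (1.83) and RAD54L (1.71), of homologous recombination, rose with an adjusted p of 5.8e-04 each, and MSH6 had a value of 0.14. All 23 DREAM and G2/M genes rose (median 1.25, range 0.61 to 1.65), among them CDCA8 (1.65, adjusted p = 8.3e-05), BUB1 (1.63, adjusted p = 1.1e-04) and AURKB (1.58, adjusted p = 6.4e-04). The products of CDCA8, BUB1 and AURKB act at the spindle, and these 3 genes peak later in the cycle than those of replication. The cell death genes known as E2F1 targets did not follow: of 14 tested, 2 rose, 2 fell and 10 did not pass, with a median of -0.11. The number that rose was 1 with any sample other than si-METTL16 replicate 3 left out, and without si-METTL16 replicate 2 the number that fell was 3 and the median -0.05. BBC3, which encodes PUMA, fell from a mean of 8.88 to 4.01 CPM (-1.15, adjusted p = 0.00337). TP53INP1, like BBC3 also a target of p53, fell by 1.12 (adjusted p = 1.6e-04). CASP8, the most abundant gene of this list that did not pass, had a log2 fold change of -0.04.

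**Figure D5:**
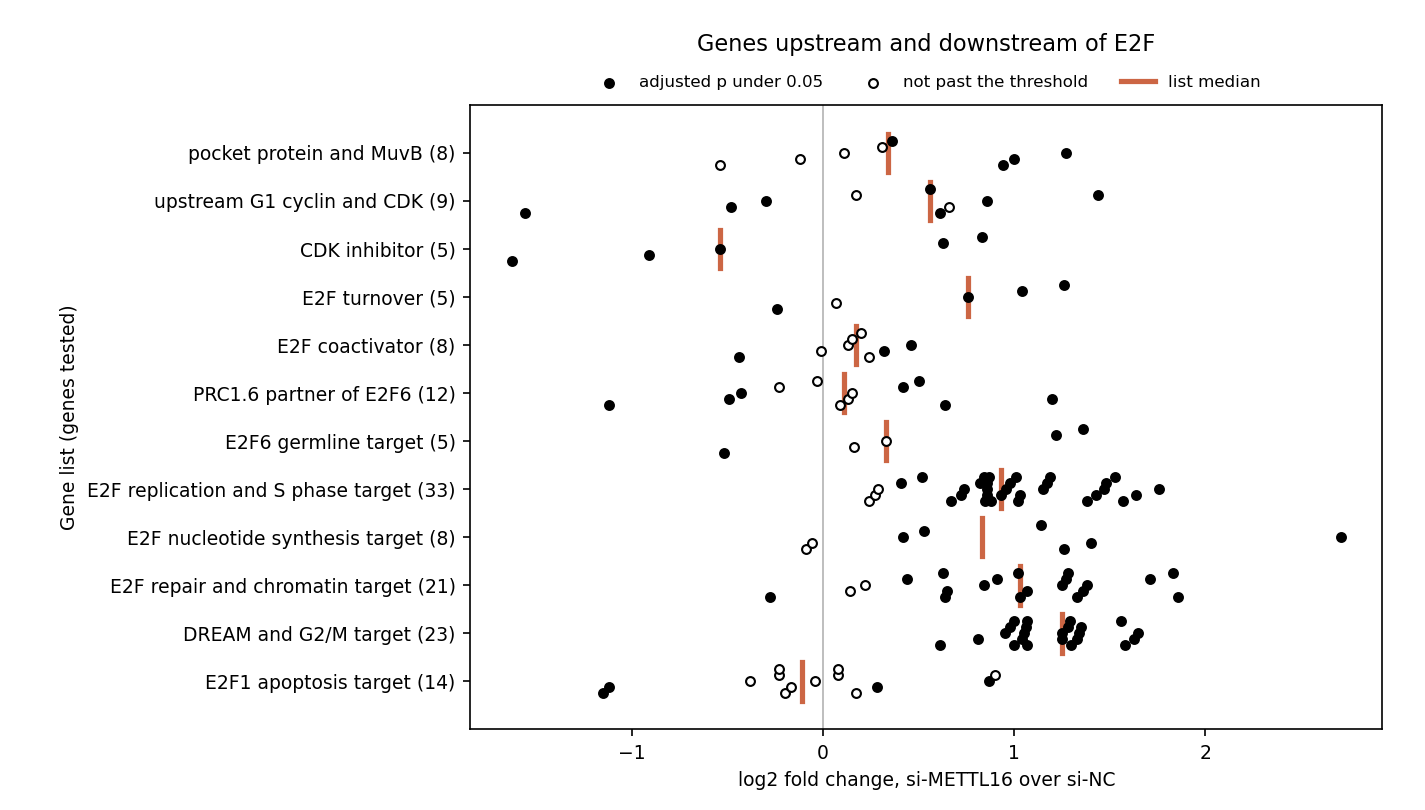
Log2 fold change of si-METTL16 over si-NC for the tested genes of each list around E2F, with filled points for an adjusted p under 0.05 and an orange bar at the list median. Medians are 0.93 for replication and S phase, 1.25 for DREAM and G2/M and -0.11 for E2F1 apoptosis targets.

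The E2F octamers were counted in the same RefSeq windows for these lists, by gene. They were present for 17 of 29 replication genes (58.6%), 8 of 17 repair and chromatin genes (47.1%) and 3 of 7 nucleotide genes (42.9%), beside 3.99% of all 27305 genes with a window. The G2/M list, which rose as fully, held them in 2 of 19 genes (10.5%), and the apoptosis list in 2 of 12 (16.7%). Many genes of the first 3 lists are known as E2F targets because of such sites, so that these shares describe the lists and do not test them.

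Finally, the genes whose log2 CPM relative to the si-NC mean lay closest to each called gene over the 6 samples were listed by their root mean square difference. For E2F1 these were CENPN (0.0516), KIF20B (0.0768) and CDCA8 (0.0785), which encode centromere and mitotic proteins. For E2F2 they were CDC45 (0.0599), HJURP (0.0697) and SHCBP1 (0.0715), and for E2F8 they were FBXO5 (0.0546), CDKN3 (0.0654) and CIP2A (0.0707). E2F7 had other neighbours, namely ZNF525 (0.0625), F3 (0.0718) and NEGR1 (0.0819), of which F3 encodes tissue factor. For E2F4 they were UROD (0.0258), WDR90 (0.0360) and PPDPF (0.0367). With 6 samples in 2 groups this measure mainly reads the size of the group difference.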

How the data were processed

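RNA-seq of 6 PANC-1 samples, 3 si-NC and 3 si-METTL16, was used, with groups and replicate numbers read from the titles. For each gene the authors deposited a raw count and an FPKM value, in which the count is divided by a gene length and the total count of the sample. The submitters' processing notes name HISAT2 2.0.4, StringTie 1.3.0 and GRCh38, and the counting program and use of strand are not given in the sources used here. Coordinates are given as deposited, on GRCh38. A spreadsheet had turned 27 symbols into dates, and these were restored by gene identifier.

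Genes were filtered with filterByExpr (minimum count 10, minimum total count 15), scaled by TMM and tested by edgeR's quasi-likelihood functions (edgeR 4.0.16, R 4.3.3), and p-values were adjusted by Benjamini-Hochberg over 15089 genes. The methods name limma without settings, and limma 3.58.1 was an alternative because a count test fits counts. Alternatives were voom, limma on log2(FPKM + 1) and log2(FPKM + 0.1) for genes averaging an FPKM of 1 or more, DESeq2 1.42.0 (Wald test, and its size factors), total count scaling, no filter, at least 10 counts in every sample, the replicate number as a block, and each sample left out. The lengths of merged GENCODE v44 exons and of MANE Select transcripts were added after seeing the data. With 3 samples per group an exact permutation test could not go below 0.1, and none was used. Precision is limited by 3 replicates and, for genes near 3 counts, by depth; such floors cover counting error only.

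The members and lists were chosen with earlier results of these data known. The named genes were METTL16, the 10 members with their pseudogenes and overlapping genes, in each list the 3 called genes with the largest absolute log2 fold change and the uncalled gene with the highest mean CPM, CCND1, CCNE1, CDKN1A and RB1, and for each called member the 3 closest profiles. Of the genes this rule names, 1 is not reported here. Promoters were RefSeq windows of GRCh38.p14. Protein sequences are not described here. Scripts were tested on simulated data and used Python 3.11.15, numpy 2.4.6 and pandas 2.3.3.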

Additional observations from a re-analysis of the deposited data

How the results depend on the processing

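Over 15 alternatives of test, scaling, filter and left-out samples, the number of differentially expressed genes was 4159 to 5487, against 5418. The calls of E2F1, E2F2, E2F7 and E2F8 held in all of them. Of 150 values of a member under an alternative, 144 stayed on the same side of the threshold, 3 lost the call (E2F4), 3 gained one (E2F6 and TFDP2) and 0 changed direction. The number of called germline targets of E2F6, 3 in the reported fit, was 1 with at least 10 counts in every sample, 1 without a filter, 0 with limma on log2(FPKM + 0.1), 0 with limma on log2(FPKM + 1), 0 with the replicate block, and 0 to 2 with 1 sample left out. By construction the alternatives with other filters test other numbers of these low genes, and elsewhere the cause was not tested. The mean activator share of the deposited FPKM became 32.4% in si-NC and 47.9% in si-METTL16 with the length of merged exons, and 21.3% and 35.3% with that of the MANE Select transcript. Both groups share replicate numbers, and no label says whether samples of the same number share more than that. After the group means were removed, such samples correlated at only 0.0253, 0.0371 and 0.0298 across genes. With the replicate block 5013 genes were called, and every sample correlated best with its own number, a hint from the data and not from the design. On log2(FPKM + 1), where low genes change less, the median of the repair and chromatin list was 0.64. Scaling by total counts moved the median of all genes by -0.03. For E2F2, E2F8 and the germline targets, low counts limit the precision.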

Other observations

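E2F3 was the member whose samples differed most within a group, and the genes with the profile closest to it over the 6 samples were looked up after its values were seen. ZNF613, a zinc finger gene on chromosome 19, was closest, with a root mean square difference of 0.0978 in log2 CPM. Its values were 4.50, 1.89 and 2.05 CPM in si-NC and 2.38, 5.07 and 5.73 CPM in si-METTL16. LSM4, which encodes a subunit of the Sm-like rings in mRNA decay and splicing, had 69.7, 30.1 and 28.6 CPM in si-NC and 43.3, 93.9 and 87.6 CPM in si-METTL16 (difference 0.177). TAPT1-AS1 (0.211) and CCDC30 (0.249) followed at low levels, with 0.888, 0.354 and 0.399 CPM in si-NC and 0.609, 1.41 and 1.56 CPM in si-METTL16 for TAPT1-AS1. CCDC30 was at 2.60, 0.884 and 1.31 CPM in si-NC and at 0.792, 2.18 and 2.61 CPM in si-METTL16. ELF4, an ETS factor gene on the X chromosome, had 62.3, 35.4 and 35.4 CPM in si-NC and 53.4, 91.8 and 91.5 CPM in si-METTL16 (difference 0.272). The 5 genes were picked for closeness to E2F3 in these same samples, so that steps shared with it follow from the choice. In all 5 genes, as in E2F3, si-NC replicate 1 was the highest control. In 4 of them si-METTL16 replicates 2 and 3 were above every other sample, whereas for CCDC30 si-NC replicate 1 lay above si-METTL16 replicate 2.

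The 6 tested genes nearest to E2F3 on chromosome 6, with 3 on either side, had differences of 0.665 to 1.06 from its profile. CDKAL1, the next tested gene, was at 20.7, 18.7 and 20.5 CPM in si-NC and at 22.4, 25.3 and 18.8 CPM in si-METTL16. MBOAT1, on the other side, was at 5.98, 6.30 and 5.53 CPM in si-NC and at 4.94, 4.17 and 3.84 CPM in si-METTL16. The steps of E2F3 between samples were thus not seen in these neighbours.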
